A study of Homo sapiens with 24 samples.

Results

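The 6 genes CA9, CA12, CA2, SLC16A1, SLC16A3 and BSG encode carbonic anhydrases, lactate transporters and a chaperone of these transporters. They were taken by name from a table of 22446 RefSeq genes, and all 6 were in it. The table holds RNA sequencing of A2780, an established epithelial ovarian cancer cell line, in 12 total RNA libraries. The groups, with 2 libraries each, were cells kept in a chamber at 1% oxygen (hypoxia) for 6 hr, 48 hr or 6 days, and normoxic cells at the same 3 times. All groups shared RPMI 1640 medium with 10 to 15% fetal bovine serum and 0.1% gentamicin sulfate, 5% CO2 and 37 °C. The labels number the libraries 1 to 12. Since no label tells whether replicate libraries were grown apart, p-values measure only the spread between these libraries, which may be technical. The labels give RNA quality only as an RNA integrity number (RIN) written RIN<8 for all libraries, and no value for a single library, so a part of RNA quality in the results was not tested. A2780 is 1 line, and no other line or patient sample was analysed here.

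Cells that burn glucose to lactate must export the lactate together with a proton. The monocarboxylate transporters MCT1 (SLC16A1) and MCT4 (SLC16A3) carry lactate and a proton across the plasma membrane, MCT4 being the form associated with lactate-exporting cells, and both need the glycoprotein basigin (BSG, also called CD147) as a chaperone to reach the surface. Carbonic anhydrases interconvert CO2 and bicarbonate: CA9 and CA12 do so on the outer face of the membrane and CA2 in the cytosol, and CA9 is a widely used marker of tumour hypoxia and a textbook target of the hypoxia-inducible factors (HIF).

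Levels are given in RPKM, reads per kilobase of gene per 1e6 reads, which can be compared between genes because they are set per length. Changes were tested with limma on log2(RPKM + 0.5), two-sided, with Benjamini-Hochberg adjusted p-values over all 11933 genes that reached 1 RPKM in at least 2 of the 12 libraries. A gene is said to have risen or fallen where its adjusted p was below 0.05. Of the 6 genes, 5 were tested. CA9 entered the test only through its 4 hypoxic libraries at 48 hr and 6 days, and CA2 reached 1 RPKM in 0 libraries and was not tested.

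Library depth, estimated from the size of 1 read among low precursor microRNA values, lay between 25.2 and 51.8 M reads (1 M is 1e6 reads). The Pearson correlation between the 2 libraries of a group was 0.989 to 0.995. Of 9 epithelial ovarian markers, 3 were tested: EPCAM, KRT18 and KRT8 were present, while PAX8 did not exceed 0.0246 RPKM and KRT7, CDH1 and MUC16 were also near 0. Among fibroblast markers, 4 of 8 were tested. The sum of all 8 was 37.1 to 38.8, 41.7 to 45.02 and 44.3 to 48.0 RPKM in hypoxia at 6 hr, 48 hr and 6 days. It was lower in normoxia, at 31.2 to 36.6, 29.1 to 31.0 and 34.1 to 35.5 RPKM. In the hypoxic sums at 6 hr, library 4 held 2.50 RPKM of COL1A1 and 3.06 RPKM of COL1A2, against 0.330 and 0.0434 RPKM in library 3. Of the 4 tested, limma called 0 at 6 hr, and 2 rose at both 48 hr and 6 days, against 3.59%, 12.1% and 42.2% of all genes called. The 6 leukocyte markers summed to at most 1.13 RPKM in a library and the 5 endothelial markers to at most 0.341 RPKM. Library 4, from hypoxia at 6 hr, stood apart, with 20.2 RPKM of the globin gene HBB against 0.0417 to 0.549 RPKM in the other 11 libraries, and 3.06 RPKM of COL1A2 against 0.0244 to 0.125 RPKM. The 6 erythroid markers summed to 29.7 RPKM in it and to 0.616 RPKM in the other hypoxic library at 6 hr. The sums were 2.15 to 2.46 RPKM in hypoxia at 48 hr and 1.63 to 2.64 RPKM at 6 days, and 0.223 to 0.559 RPKM over the 6 normoxic libraries. The part of these other transcripts in the results was not tested. The 6 hr differences of CA9, CA12, CA2, SLC16A3 and BSG are given with and without library 4, and the marker sums and gene lists only with it.

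The promoter windows show whether the letters ACGTG, a core that HIF binds, are found near the start of these genes. They are RefSeq sequences of build GRCh38.p14, from 250 bases before to 50 bases after an annotated start, written along the gene's strand. Capitals mark ACGTG or its reverse complement CACGT, which overlap in BSG. 4 of the 6 genes had entries, with 9 windows in all.

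CA9, chr9:35673678-35673977, plus strand: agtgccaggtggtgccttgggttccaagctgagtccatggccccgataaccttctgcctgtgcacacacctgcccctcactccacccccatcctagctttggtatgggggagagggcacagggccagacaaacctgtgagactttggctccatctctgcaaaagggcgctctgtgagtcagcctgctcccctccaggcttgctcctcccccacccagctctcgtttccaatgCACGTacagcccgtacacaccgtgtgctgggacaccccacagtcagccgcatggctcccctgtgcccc

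CA12, chr15:63381797-63382096, minus strand: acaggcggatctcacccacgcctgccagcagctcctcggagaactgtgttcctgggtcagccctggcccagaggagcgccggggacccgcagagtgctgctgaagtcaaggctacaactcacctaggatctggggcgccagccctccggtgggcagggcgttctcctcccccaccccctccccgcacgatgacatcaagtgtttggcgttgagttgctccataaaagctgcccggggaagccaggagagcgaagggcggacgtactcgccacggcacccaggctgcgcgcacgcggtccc

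SLC16A3, chr17:82228792-82229091, plus strand: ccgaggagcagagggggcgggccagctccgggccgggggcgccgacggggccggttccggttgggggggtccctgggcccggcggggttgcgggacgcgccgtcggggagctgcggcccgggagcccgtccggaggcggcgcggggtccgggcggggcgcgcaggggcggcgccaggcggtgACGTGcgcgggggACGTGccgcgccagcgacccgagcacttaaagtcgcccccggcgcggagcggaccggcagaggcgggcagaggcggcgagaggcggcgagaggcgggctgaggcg

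BSG, chr19:572346-572645, plus strand: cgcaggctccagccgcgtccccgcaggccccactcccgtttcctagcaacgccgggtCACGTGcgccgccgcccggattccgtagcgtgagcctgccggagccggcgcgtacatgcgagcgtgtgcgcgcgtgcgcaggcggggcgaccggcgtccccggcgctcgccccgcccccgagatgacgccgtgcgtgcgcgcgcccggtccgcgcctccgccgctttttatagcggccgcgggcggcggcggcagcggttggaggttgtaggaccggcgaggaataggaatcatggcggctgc

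The CA9 window holds CACGT from 18 to 14 bases before the start. The SLC16A3 window holds ACGTG from 68 to 64 and again from 55 to 51 bases before it. In the BSG window the overlapping pair spans 193 to 188 bases before the start. The CA12 window, the other 4 SLC16A3 windows and the other BSG window have none of these letters. No other letters were searched, so these windows were not tested for other forms of a HIF site. Of all 35116 promoter windows of this length, 7518, or 21.4%, hold the letters on either strand, so their presence is common, and a match describes the sequence only.

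CA9, which hydrates CO2 outside the cell, was close to silent in normoxia and became the most abundant of the 3 carbonic anhydrases in hypoxia by 48 hr. It had 0.151 and 0.217 RPKM in hypoxia at 6 hr, against 0.0248 and 0 RPKM in normoxia. The 48 hr values were 4.48 and 3.13 RPKM in hypoxia, against 0.0158 and 0.0139 RPKM in normoxia. At 6 days it had 7.75 and 8.57 RPKM in hypoxia, against 0.0431 and 0.0638 RPKM in normoxia. Every hypoxic library was above every normoxic one at each time, as for 11.1% of all genes tested. No normoxic library passed 0.0638 RPKM. In bulk RNA, fewer cells that express a gene and less of its RNA per cell cannot be told apart.

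The low CA9 values fall on whole reads within 0.1 of a read, which shows the counts behind them. There were 9 and 12 reads in hypoxia at 6 hr, against 2 and 0 in normoxia. At 48 hr there were 243 and 172 reads in hypoxia, against 1 and 1 in normoxia, and at 6 days 400 and 335 in hypoxia, against 2 and 3 in normoxia. The counts above 100 are rounded from the same step. The normoxic library with 0 reads allows up to 0.0739 RPKM, taken as 3 reads. The hypoxia over normoxia ratio of read rates was 11.1 at 6 hr (95% exact interval 2.71 to 97.4), 257 at 48 hr (70.7 to 2130) and 151 at 6 days (64.6 to 468). These intervals cover counting error only and compare the libraries, not the conditions. The normoxic side rests on 2, 2 and 5 reads, and the intervals at 48 hr and 6 days overlap.

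**Figure D1:**
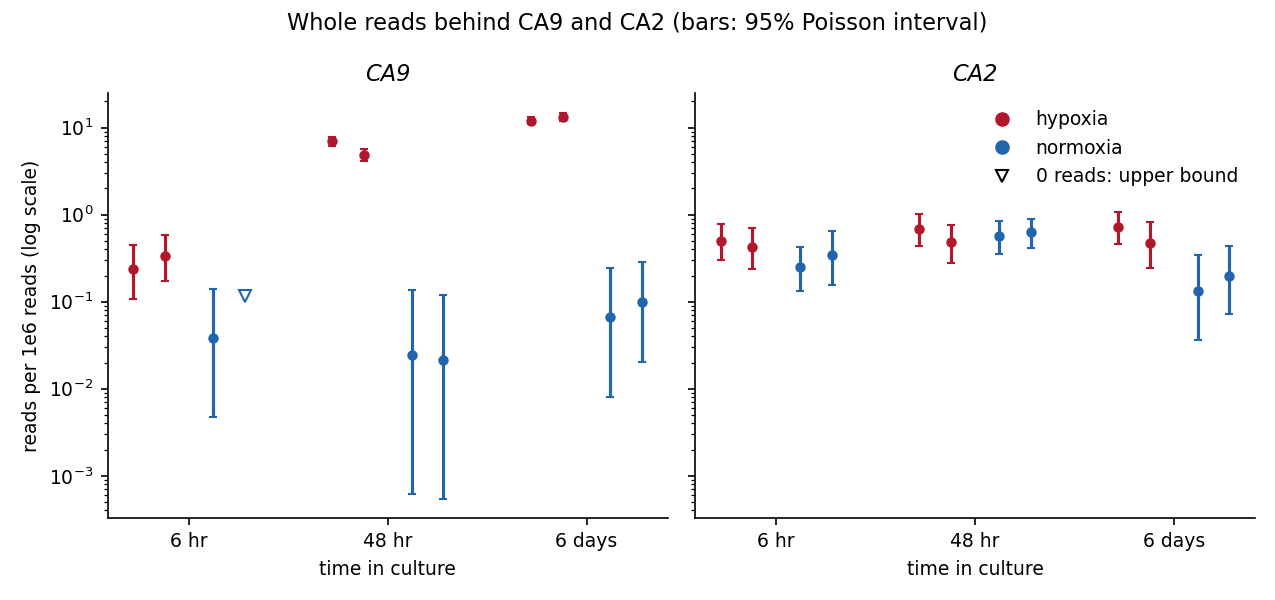
Reads of CA9 (left) and CA2 (right) per 1e6 reads on a log axis, by time, with hypoxia (red) left of normoxia (blue) and 1 point per library; bars are 95% exact Poisson intervals and the open triangle marks the 3-read limit of the library with 0 reads. CA9 separates by oxygen at every time, from 21 against 2 reads at 6 hr to 735 against 5 reads at 6 days, while CA2 stays at 4 to 29 reads a library.

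On the log2(RPKM + 0.5) scale, which understates changes of low genes, CA9 rose in hypoxia by 3.05 at 48 hr (SE 0.15, limma adjusted p = 2.05e-07) and by 3.97 at 6 days (SE 0.15, limma adjusted p = 2.32e-08). At 6 hr its difference was 0.42 (SE 0.15, limma adjusted p = 0.171), and 0.35 (adjusted p = 0.368) without library 4. With a pseudocount of 0.1 in place of 0.5 the difference at 6 hr was 1.34 and passed the threshold (limma adjusted p = 0.0128). Ranked by log2 fold change from the highest of 11933 genes, CA9 stood at place 722 at 6 hr, 6 at 48 hr and 2 at 6 days. CA9 entered this ranking only through its hypoxic libraries at 48 hr and 6 days, so its places there are partly set by the filter.

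The effect of hypoxia on CA9 was larger at 48 hr than at 6 hr by 2.63 on the same scale (SE 0.21, limma adjusted p = 0.000353) and larger at 6 days than at 6 hr by 3.55 (SE 0.21, limma adjusted p = 7.4e-06). Between 48 hr and 6 days it differed by 0.92 (SE 0.21, limma adjusted p = 0.0205). CA9 was the only 1 of the 5 genes to pass in these comparisons, which called 0.528%, 21.4% and 10.7% of all genes, for 48 hr against 6 hr, 6 days against 6 hr and 6 days against 48 hr. Those backgrounds, 63, 2555 and 1276 genes, ran from 11 to 110, 1498 to 3147 and 365 to 630 with a library left out, and the last was 2479 with quantile normalization. The last difference depended on single libraries: its adjusted p was 0.056 without library 5, 0.0568 without library 6, 0.0746 without library 8, 0.0608 without library 9, 0.0556 without library 10 and 0.0757 without library 12. It was 0.246 with a pseudocount of 0.1. The read-rate ratio was lower at 6 days (151) than at 48 hr (257). In hypoxia alone, CA9 rose between 6 hr and 48 hr by 2.64 (limma adjusted p = 1.74e-05) and between 48 hr and 6 days by 1.02 (adjusted p = 0.000113). Normoxic CA9 averaged 0.0124, 0.0148 and 0.0535 RPKM at 6 hr, 48 hr and 6 days and passed no test between times. Between 48 hr and 6 hr in normoxia limma called 0 of the 5 genes (also 0 at an unadjusted p below 0.05), against 0.0922% of all genes. That background is 11 genes, and 1310 without library 1.

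CA12, also a membrane enzyme with an outward active site, was expressed in every library within a 1.94-fold range, and was modestly higher in hypoxia. It had 3.18 and 2.83 RPKM in hypoxia at 6 hr, against 2.76 and 2.30 RPKM in normoxia. CA12 at 48 hr stood at 2.96 and 2.69 RPKM in hypoxia, against 2.08 and 2.46 RPKM in normoxia. At 6 days it had 2.45 and 2.28 RPKM in hypoxia, against 1.68 and 1.64 RPKM in normoxia. Hypoxic libraries were above normoxic ones at all 3 times, as for CA9 and SLC16A3, and as for 11.1% of all genes tested; at the single times that held for 24.1%, 33.3% and 41.3% of genes at 6 hr, 48 hr and 6 days.

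CA12 rose in hypoxia at 6 days by 0.41 (SE 0.11, 95% interval 0.16 to 0.65, limma adjusted p = 0.0133) and on average over the 3 times by 0.30 (SE 0.07, adjusted p = 0.00995). At 6 hr the difference was 0.21 (adjusted p = 0.377), and 0.28 without library 4 (adjusted p = 0.331). At 48 hr it was 0.27 (adjusted p = 0.153). The call at 6 days was lost without library 9 (0.42, adjusted p = 0.0518), library 10 (0.39, adjusted p = 0.0656) or library 11 (0.37, adjusted p = 0.0809). No difference of the CA12 effect between times passed the test, and the 3 differences were 0.06 to 0.20.

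With time, CA12 fell by 0.29 on the log2 scale between 6 hr and 6 days in hypoxia (limma adjusted p = 0.0398). In normoxia it fell by 0.49 over the same interval (limma adjusted p = 0.00328) and by 0.36 between 48 hr and 6 days (adjusted p = 0.0172). These comparisons called 64.9%, 56.7% and 59.4% of all genes. The fall in hypoxia was not called without library 3 (adjusted p = 0.207), library 11 (0.0722) or library 12 (0.167), nor without the low-value filter (0.0625). The fall between 48 hr and 6 days in normoxia was not called without library 6 (adjusted p = 0.137), library 9 (0.0566) or library 10 (0.0722). From the highest group mean to the lowest, CA12 ran hypoxia 6 hr, hypoxia 48 hr, normoxia 6 hr, hypoxia 6 days, normoxia 48 hr and normoxia 6 days, and only the last step passed the test between neighbours.

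CA2, the abundant cytosolic carbonic anhydrase of red cells and kidney, was low in A2780 cells at every time. It had 0.297 and 0.253 RPKM in hypoxia at 6 hr, against 0.151 and 0.207 RPKM in normoxia. Its 48 hr values were 0.413 and 0.289 RPKM in hypoxia, against 0.339 and 0.376 RPKM in normoxia, and the groups overlapped. At 6 days CA2 had 0.434 and 0.286 RPKM in hypoxia, against 0.0805 and 0.119 RPKM in normoxia. The hypoxic libraries were above the normoxic ones at 6 hr and 6 days, as for 24.1% and 41.3% of all genes tested. The 6-day gap came with normoxic CA2 at its lowest of the 3 times.

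Behind these CA2 values lie 24 and 12 reads in hypoxia at 6 days, against 4 and 6 reads in normoxia. The read-rate ratio of hypoxia over normoxia was 3.71 at 6 days (95% exact interval 1.80 to 8.38), 0.977 at 48 hr (0.632 to 1.50) and 1.63 at 6 hr (0.926 to 2.92). Without the low-value filter, CA2 differed at 6 days by 0.52 (limma adjusted p = 0.0103) and at 6 hr by 0.19 (adjusted p = 0.541). With quantile normalization the 6-day value turned to -0.063. Library 4, with the most globin RNA, had 15 reads of CA2 and library 3 of the same group had 19, and the 6 hr difference was 0.23 without library 4.

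**Figure D2:**
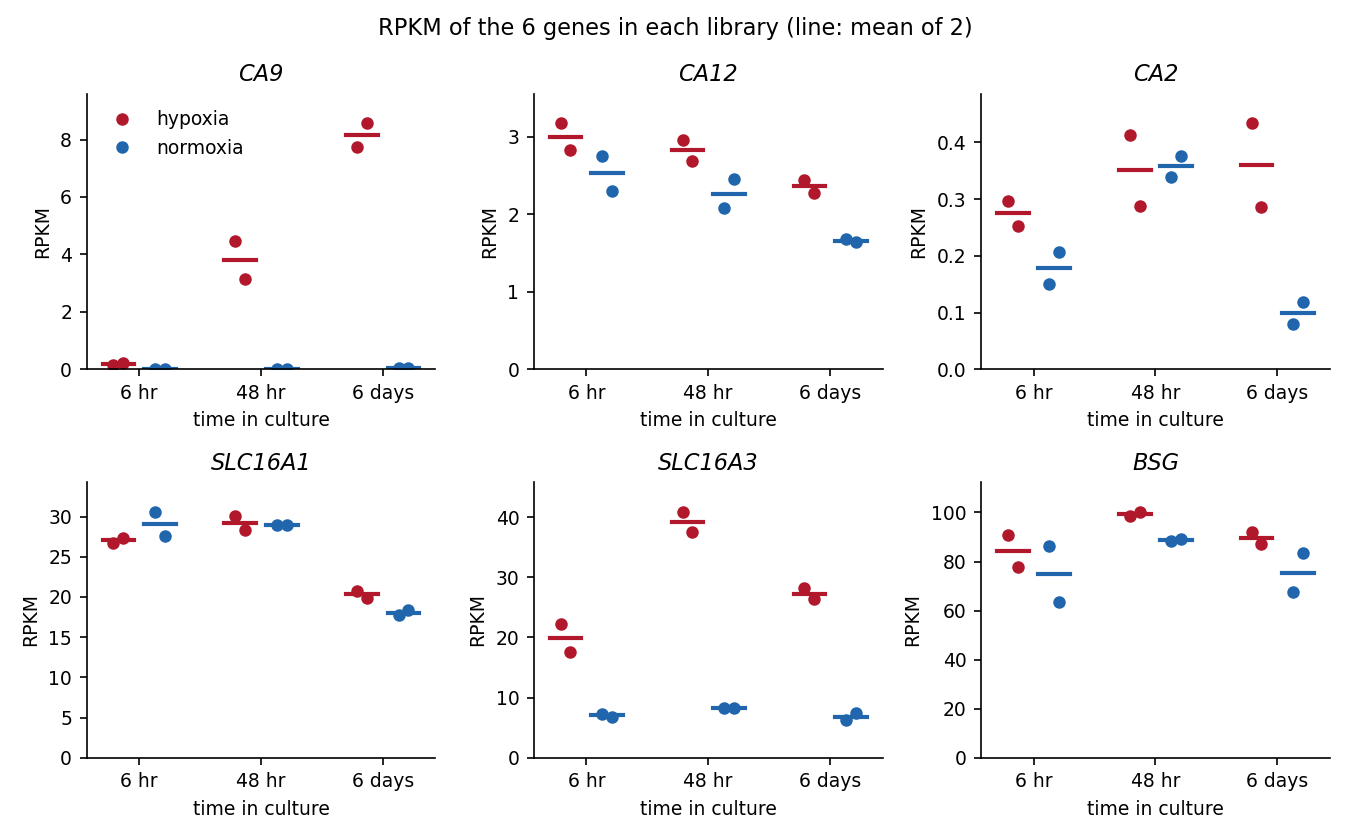
RPKM of each gene on a linear axis from 0, by time in culture, with hypoxia (red) left of normoxia (blue), 1 point per library and a line at the mean of 2. CA9 and SLC16A3 separate widely by oxygen, CA12 narrowly at each time, and SLC16A1 and BSG lie within a 1.72-fold and a 1.58-fold range over all libraries.

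The sum of the 3 carbonic anhydrases was 3.46 ± 0.233 RPKM in hypoxia at 6 hr, against 2.72 ± 0.299 RPKM in normoxia (SD, n = 2 each). It was 6.98 ± 1.23 RPKM in hypoxia at 48 hr, against 2.64 ± 0.290 RPKM in normoxia, and 10.9 ± 0.360 RPKM in hypoxia at 6 days, against 1.81 ± 0.0144 RPKM in normoxia. CA9 made up 5.37%, 54.1% and 74.9% of that sum in hypoxia at 6 hr, 48 hr and 6 days, and at most 2.95% on average in normoxia. CA12 made up 85.9% to 92.9% in the normoxic groups and 21.8% in hypoxia at 6 days. The CA9 to CA12 ratio was 0.0621 in hypoxia at 6 hr, 1.34 at 48 hr and 3.46 at 6 days, so the order of these 2 genes had turned by 48 hr. CA14, another membrane form, is not in this sum. It averaged 4.24, 5.13 and 6.70 RPKM in hypoxia at 6 hr, 48 hr and 6 days, against 4.21, 4.45 and 10.9 RPKM in normoxia. In hypoxia at 48 hr CA14 was above CA9, which averaged 3.81 RPKM. So was CA11, also outside this sum, which averaged 5.72 RPKM in hypoxia at 48 hr and 4.48 RPKM in normoxia.

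SLC16A3, which encodes the lactate exporter MCT4, rose in hypoxia at all 3 times. It had 22.3 and 17.5 RPKM in hypoxia at 6 hr, against 7.27 and 6.84 RPKM in normoxia. The 48 hr libraries gave 40.9 and 37.5 RPKM in hypoxia, against 8.22 and 8.25 RPKM in normoxia. At 6 days SLC16A3 had 28.1 and 26.3 RPKM in hypoxia, against 6.26 and 7.43 RPKM in normoxia. The lowest hypoxic library exceeded the highest normoxic one at every time, as for 11.1% of all genes tested. Normoxic levels stayed between 6.26 and 8.25 RPKM.

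The log2 fold change of SLC16A3 was 1.43 at 6 hr (SE 0.12, limma adjusted p = 3.49e-05), 2.18 at 48 hr (SE 0.12, adjusted p = 5.66e-07) and 1.92 at 6 days (SE 0.12, adjusted p = 6.89e-07). Without library 4, the 6 hr value was 1.60 (adjusted p = 7.91e-05). SLC16A3 was the only 1 of the 5 genes tested that passed at 6 hr, where 3.59% of all genes did (3.39% higher and 0.201% lower). It stood at place 37 of 11933 by fold change at 6 hr, 29 at 48 hr and 121 at 6 days. At 48 hr 2 of the 5 passed, CA9 and SLC16A3, against 12.1% of all genes (9.24% higher and 2.89% lower). At 6 days 3 of the 5 passed, CA9, CA12 and SLC16A3, against 42.2% of all genes (23.9% higher and 18.3% lower), so the count at 6 days is to be read against a large background. On average over the times CA9, CA12 and SLC16A3 passed, against 22.5% of all genes (15.3% higher and 7.13% lower). The share of all calls that were higher in hypoxia, 94.4%, 76.2% and 56.6% at 6 hr, 48 hr and 6 days and 68.3% over the times, depended on scaling: it was 76.1%, 57.9%, 45.3% and 43.7% with quantile normalization, and 76.6%, 56.4%, 49.6% and 48.1% with trimmed-mean centring.

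In hypoxia SLC16A3 peaked at 48 hr. It rose between 6 hr and 48 hr by 0.97 (limma adjusted p = 0.00124) and fell by 0.52 on the log2 scale between 48 hr and 6 days (adjusted p = 0.00288), in comparisons that called 5.84% and 62.8% of all genes. The first of these backgrounds, 697 genes, was 80 without library 7, 87 without library 4 and 181 without library 8. Its level at 6 days was above that at 6 hr by 0.45 (limma adjusted p = 0.00631), a call that was lost without library 4 (0.28, adjusted p = 0.0701). The size of the hypoxia effect did not pass the test between times: it differed by 0.76 between 48 hr and 6 hr (limma adjusted p = 0.098), by -0.26 between 6 days and 48 hr (adjusted p = 0.336) and by 0.49 between 6 days and 6 hr (adjusted p = 0.0588). Centring each library on its trimmed mean gave an adjusted p of 0.0396 for the 48 hr against 6 hr difference and 0.0263 for 6 days against 6 hr, and leaving out library 3 gave an adjusted p of 0.0233 for the same 6 days against 6 hr difference. The SLC16A3 gene overlaps CSNK1D, and the counting was not stated to use strand. CSNK1D had 9.76, 8.55, 12.05, 12.06, 9.39 and 9.43 RPKM in the 6 hypoxic libraries in order of time, and 8.01 to 10.9 RPKM in the normoxic ones.

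SLC16A1, which encodes the broadly expressed transporter MCT1, gave no difference between hypoxia and normoxia at the same time that passed the test. It had 26.8 and 27.4 RPKM in hypoxia at 6 hr, against 30.6 and 27.6 RPKM in normoxia. At 48 hr it had 30.1 and 28.4 RPKM in hypoxia, against 29.0 and 29.0 RPKM in normoxia. At 6 days it had 20.7 and 19.9 RPKM in hypoxia, against 17.8 and 18.3 RPKM in normoxia. The hypoxic libraries lay below the normoxic ones at 6 hr, as for 12.9% of all genes tested, and around them at 48 hr. At 6 days they lay above them, as for 41.3% of all genes tested.

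The log2 fold change of SLC16A1 was -0.10 at 6 hr (95% interval -0.29 to 0.08, limma adjusted p = 0.599), 0.01 at 48 hr (-0.17 to 0.20, adjusted p = 0.95) and 0.17 at 6 days (-0.02 to 0.35, adjusted p = 0.134). The sign at 48 hr turned with trimmed-mean centring. The change of the effect from 6 hr to 6 days, 0.27, missed the threshold (limma adjusted p = 0.13), and passed it without library 2 (0.34, adjusted p = 0.0411) or with quantile normalization (0.29, adjusted p = 0.0454). SLC16A1 fell between 48 hr and 6 days in both conditions. The fall was 0.51 on the log2 scale in hypoxia (limma adjusted p = 0.000288) and 0.67 in normoxia (adjusted p = 5.1e-05). These comparisons called 62.8% and 59.4% of all genes. Between 6 hr and 48 hr SLC16A1 changed by 0.11 in hypoxia (limma adjusted p = 0.491) and by -0.004 in normoxia (adjusted p = 0.987). The SLC16A1 gene overlaps the pseudogene AKR7A2P1, which is a row of its own in the table.

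The balance between the transporters differed between conditions. The SLC16A3 to SLC16A1 ratio was 0.834 and 0.641 in hypoxia at 6 hr, against 0.237 and 0.248 in normoxia. It was 1.36 and 1.32 in hypoxia at 48 hr, against 0.284 and 0.285 in normoxia, and 1.36 and 1.32 in hypoxia at 6 days, against 0.353 and 0.405 in normoxia. In hypoxia both libraries at 6 days had the ratios seen at 48 hr, and both genes were lower at 6 days. The sum of the transporters was 47.0 ± 2.97, 68.4 ± 3.65 and 47.5 ± 1.88 RPKM in hypoxia at 6 hr, 48 hr and 6 days, against 36.2 ± 2.45, 37.2 ± 0.0130 and 24.9 ± 1.24 RPKM in normoxia (SD, n = 2 each).

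**Figure D3:**
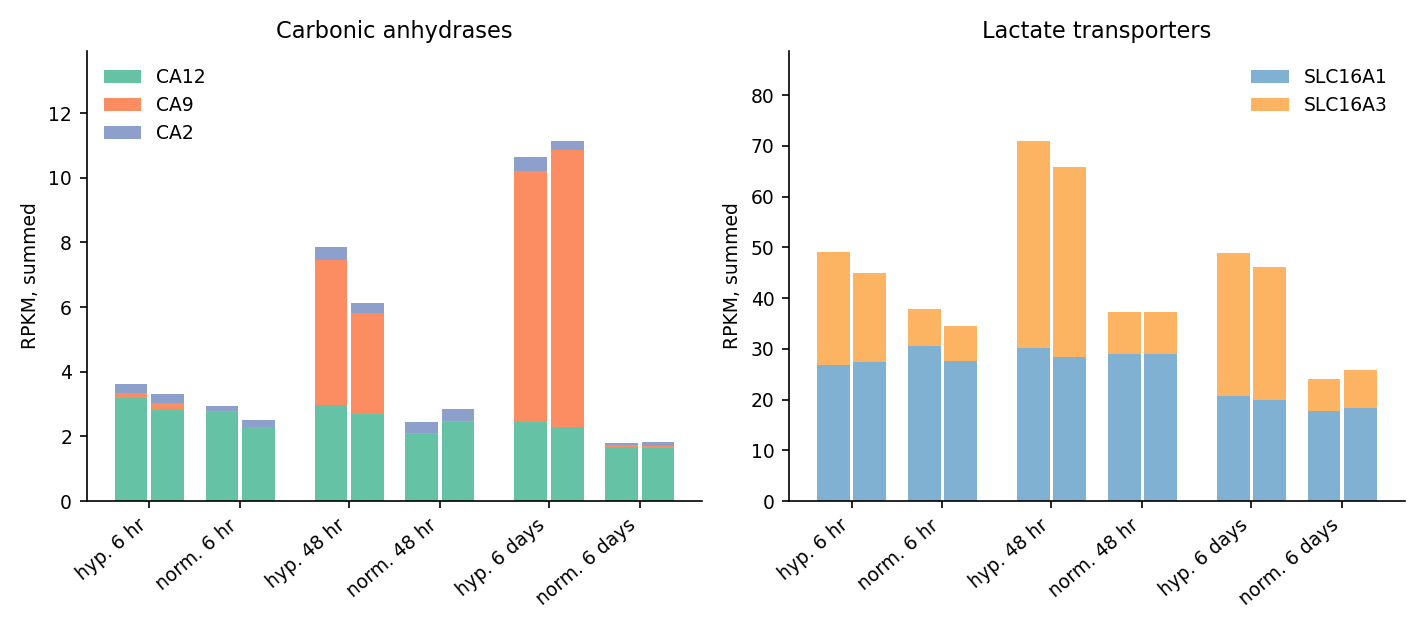
Summed RPKM per library of the 3 carbonic anhydrases (left) and the 2 lactate transporters (right), 1 bar per library, hypoxia left of normoxia at each time. CA9 grows to 74.9% of the carbonic anhydrase sum in hypoxia at 6 days, and SLC16A3 makes up 57.3% of the transporter sum in hypoxia at both 48 hr and 6 days, against 22.1% and 27.5% in normoxia.

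BSG, the chaperone of both transporters, was the most abundant of the 6 genes in every library and gave no difference between hypoxia and normoxia at the same time that passed the test. It had 91.0 and 77.8 RPKM in hypoxia at 6 hr, against 86.2 and 63.7 RPKM in normoxia. At 48 hr it had 98.4 and 100.4 RPKM in hypoxia, against 88.2 and 89.0 RPKM in normoxia. At 6 days BSG had 92.1 and 87.2 RPKM in hypoxia, against 67.4 and 83.3 RPKM in normoxia. The groups overlapped at 6 hr. Hypoxic libraries lay above normoxic ones at 48 hr and 6 days, as for 33.3% and 41.3% of all genes tested.

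The log2 fold change of BSG was 0.18 at 6 hr (95% interval -0.15 to 0.51, limma adjusted p = 0.592), 0.17 at 48 hr (-0.16 to 0.49, adjusted p = 0.524) and 0.26 at 6 days (-0.07 to 0.59, adjusted p = 0.191). At 6 hr it was 0.30 without library 4 (limma adjusted p = 0.446), and without library 2 its sign turned (-0.03). On average over the times it was 0.20 (limma adjusted p = 0.115), and it passed without library 1 (0.26, adjusted p = 0.0352). Within hypoxia and within normoxia BSG was not called between any times. Of the pairs that differ in both oxygen and time, hypoxia at 48 hr was above normoxia at 6 days by 0.41 (limma adjusted p = 0.0367). Per unit of transporter, BSG over the sum of SLC16A1 and SLC16A3 was 1.79, 1.46 and 1.88 in hypoxia at 6 hr, 48 hr and 6 days, against 2.06, 2.38 and 3.02 in normoxia. BSG overlaps the antisense gene BSG-AS1, whose reads cannot be told apart from its own without strand.

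**Figure D4:**
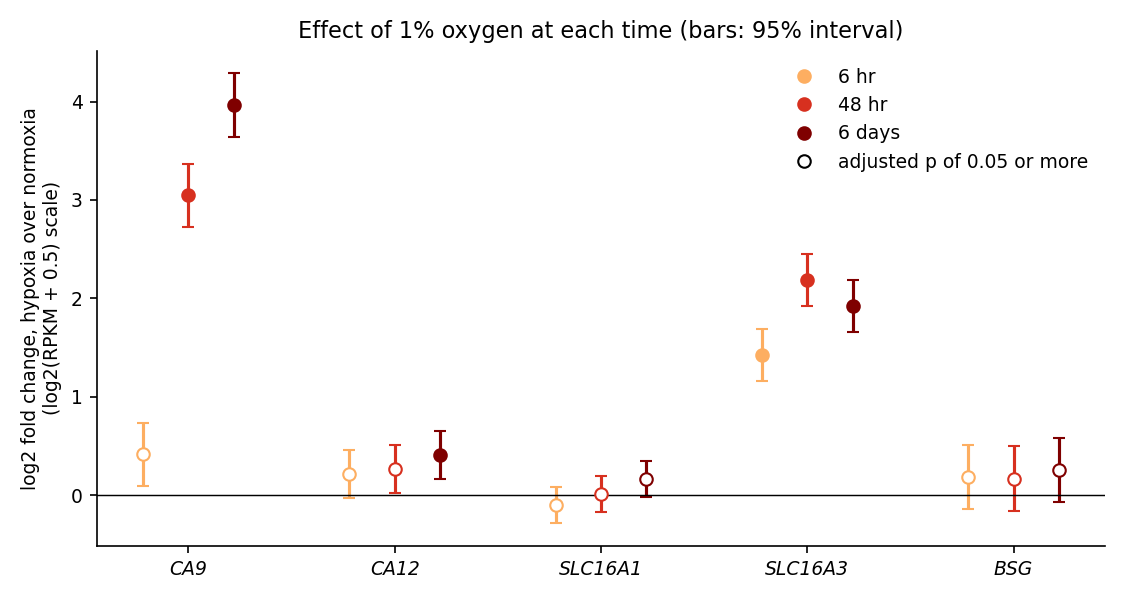
Log2 fold change of hypoxia over normoxia on the log2(RPKM + 0.5) scale for the 5 genes tested, in order of time (6 hr, 48 hr, 6 days), with 95% intervals; open points had an adjusted p of 0.05 or more. SLC16A3 is above 1 at each time, CA9 reaches 3.97 at 6 days, and the 3 intervals of SLC16A1 and of BSG all include 0.

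Across the 12 libraries, the genes whose log2 levels were most like those of CA9 were C9orf25 (Pearson r = 0.988), SNCB (0.987) and CNTFR (0.985). C9orf25 averaged 3.30, 6.65 and 8.47 RPKM in hypoxia at 6 hr, 48 hr and 6 days, against 2.53, 2.80 and 2.56 RPKM in normoxia. SNCB and CNTFR, like CA9, passed the low-value filter only through hypoxic libraries later than 6 hr, so their likeness to CA9 is partly set by the filter. SLC16A3 was most like NCKIPSD (0.996), the collagen lysyl hydroxylase gene PLOD1 (0.984) and the hexokinase gene HK1 (0.983). SLC16A1 was most like the near-identical small RNA genes SNAR-B1 and SNAR-B2 (0.992 each, with the same values in the table) and KLHL21 (0.991). CA12 was most like LAMP1 (0.937), DNAJC25 (0.928) and C7orf42 (0.926), and BSG was most like TSC22D4 (0.937) and PFDN1 (0.935). Between the genes themselves, the highest correlation was between CA9 and SLC16A3 (0.84), followed by CA12 with SLC16A1 (0.72), and CA9 with SLC16A1 was -0.19. These 12 points fall into 6 groups that share oxygen level and time, so the correlations are descriptions.

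Of 12 other carbonic anhydrases in the table, 4 were tested. At 6 hr and 48 hr limma called 0 and 0 of these, against 3.59% and 12.1% of all genes. At an unadjusted p below 0.05 there were 0 and 2. At 6 days 2 of the 4 were called, against 42.2% of all genes. CA5B, a mitochondrial form, rose, with 2.54 and 2.56 RPKM in hypoxia against 1.40 and 1.40 RPKM in normoxia (log2 fold change 0.69, limma adjusted p = 0.00143). CA14, a membrane form, fell, with 7.23 and 6.16 RPKM in hypoxia against 10.5 and 11.2 RPKM in normoxia (-0.66, adjusted p = 0.00896). At 6 days the carbonic anhydrase with the highest mean RPKM in the table was CA9 in hypoxia and CA14 in normoxia. CA8, a form that lacks enzyme activity, was not tested and averaged 0.876 RPKM in hypoxia at 6 days, against 0.0730 RPKM in normoxia.

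Among the other SLC16 carriers and the chaperones EMB and NPTN, 9 of 14 were tested. At 6 hr limma called 0 (1 at an unadjusted p below 0.05). At 48 hr 1 fell, and at 6 days 4 rose and 2 fell. These counts stand against 3.59%, 12.1% and 42.2% of all genes called at the 3 times. The median log2 fold change of these carriers and chaperones at 6 days was 0.17, against 0.04 for all genes. SLC16A6 had 3.89 and 4.37 RPKM in hypoxia at 6 days, against 1.19 and 1.35 RPKM in normoxia (1.39, limma adjusted p = 9.15e-06). SLC16A10, an aromatic amino acid carrier, fell at 48 hr, with 2.32 and 1.99 RPKM in hypoxia against 3.36 and 3.29 RPKM in normoxia (-0.53, adjusted p = 0.0112). SLC16A13 rose at 6 days (0.48, adjusted p = 0.0234). SLC16A7, which encodes the lactate carrier MCT2, was below the minimum at 0.256 to 0.517 RPKM.

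Among the other routes of acid export, the share of genes called in either direction at 6 days was no higher than the 42.2% of all genes. By direction, 23.9% of all genes rose and 18.3% fell. Of 8 sodium-proton exchangers and regulators tested, limma called 0 at 6 hr and 0 at 48 hr, also 0 at an unadjusted p below 0.05. At these times 3.59% and 12.1% of all genes were called. At 6 days 2 of the exchangers and regulators rose. SLC9A2, a plasma membrane exchanger, had 1.41 and 1.32 RPKM in hypoxia at 6 days, against 0.191 and 0.267 RPKM in normoxia (1.36, limma adjusted p = 1.36e-05). It passed the low-value filter only through those hypoxic libraries. Of 5 bicarbonate transporters tested, limma called 0 at 6 hr and 0 at 48 hr (0 and 1 at an unadjusted p below 0.05). The shares of all genes were again 3.59% and 12.1%. SLC4A7, a sodium-bicarbonate cotransporter, fell at 6 days, with 9.65 and 9.66 RPKM in hypoxia against 12.03 and 11.82 RPKM in normoxia (-0.29, adjusted p = 0.0353). Of 19 genes of the vacuolar proton pump tested, limma called 0 at 6 hr (3 at an unadjusted p below 0.05). At 48 hr 1 rose and 1 fell, and at 6 days 7 rose and 1 fell. Of all genes, 3.59%, 12.1% and 42.2% were called at the 3 times. The 6-day median of the pump genes was 0.26, against 0.04 for all genes. ATP6V0E1, a membrane subunit, had 31.2 and 37.0 RPKM in hypoxia at 6 days, against 17.3 and 18.2 RPKM in normoxia (0.92, adjusted p = 9.15e-05).

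Of 9 lactate and pyruvate genes tested, 2 rose at 6 hr, 3 at 48 hr, and 4 rose and 1 fell at 6 days, against 3.59%, 12.1% and 42.2% of all genes called at these times. Both genes called at 6 hr, PDK1 and PDK3, encode kinases that inhibit pyruvate dehydrogenase. LDHA, the lactate dehydrogenase subunit that favours lactate formation, had 598 and 572 RPKM in hypoxia at 48 hr, against 259 and 264 RPKM in normoxia (1.16, limma adjusted p = 0.000243), and rose by 1.84 at 6 days (adjusted p = 2.81e-06). At 6 hr its difference was 0.55 (adjusted p = 0.0546). PDK1 rose by 1.60, 2.27 and 1.81 at 6 hr, 48 hr and 6 days (adjusted p = 1.6e-06, 3.98e-08 and 1.16e-07).

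Of 9 partners of basigin tested, limma called 0 at 6 hr (2 at an unadjusted p below 0.05). At 48 hr 2 rose, and at 6 days 3 rose and 1 fell. These counts stand against 3.59%, 12.1% and 42.2% of all genes called at the 3 times. CAV1, the caveolin that binds basigin, had 1.01 and 1.22 RPKM in hypoxia at 6 days, against 0.102 and 0.108 RPKM in normoxia (1.41, limma adjusted p = 3.98e-05), and it passed the low-value filter only through those hypoxic libraries. The integrin gene ITGB1 had 220.8 and 212 RPKM in hypoxia at 6 days, against 149.6 and 148 RPKM in normoxia (0.54, adjusted p = 0.00454). Of 8 acid-sensing receptors and channels, 1 was tested: the gene listed as ACCN2, now ASIC1, fell at 6 days, with 1.56 and 1.58 RPKM in hypoxia against 2.35 and 2.65 RPKM in normoxia (-0.53, adjusted p = 0.0033).

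**Figure D5:**
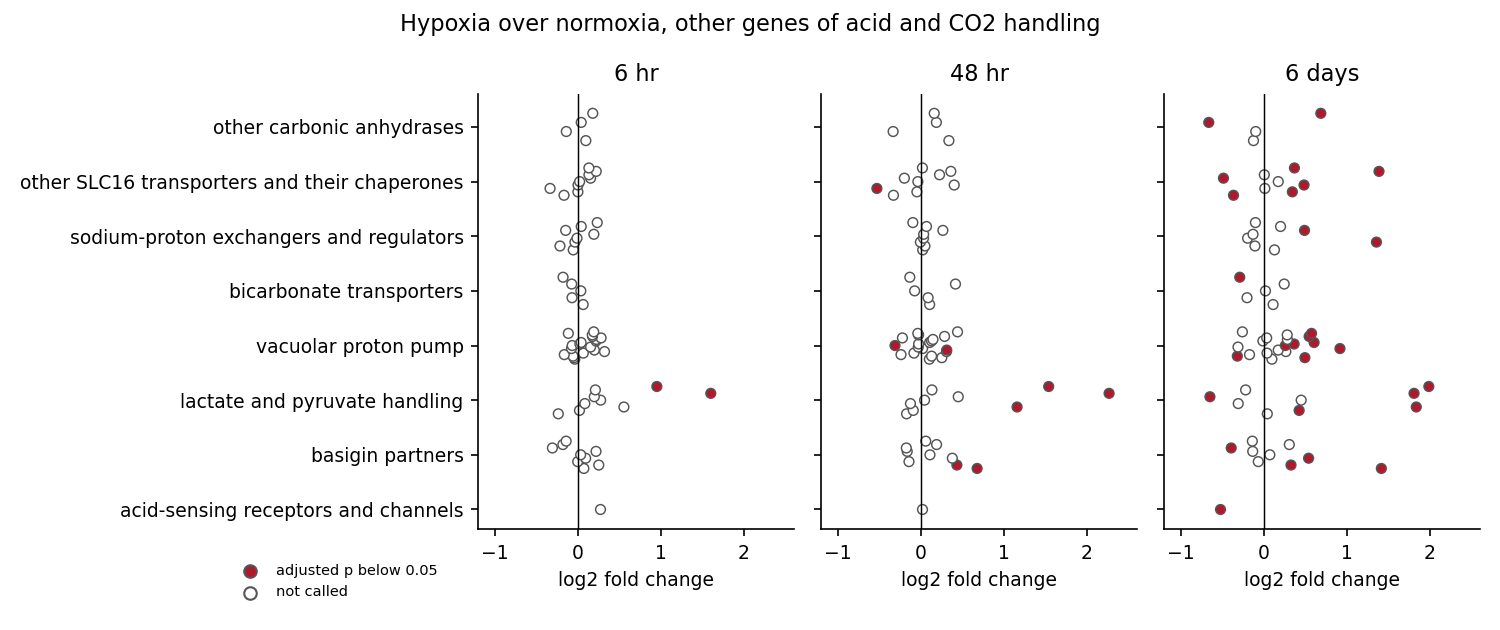
Log2 fold change of hypoxia over normoxia (horizontal axis) for every tested gene of 8 lists of acid, lactate and CO2 handling, with 1 panel per time; filled red points had an adjusted p below 0.05. At 6 hr the only filled points are 2 of the lactate and pyruvate genes, and at 6 days filled points appear in all 8 lists.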

How the data were processed

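Total RNA of A2780 cells was depleted of ribosomal RNA and sequenced with the SOLiD chemistry in 75-base forward reads, per the labels' protocols. The authors deposited RPKM per RefSeq gene for 12 libraries, and RPKM per precursor microRNA for the same libraries, a table used here only to estimate depth. The submitters' processing notes name Partek 6.6 and hg19. The aligner is not given in the sources used here, nor are the counting rule, the use of strand and the read total behind RPKM, so their effect on the values is unknown.

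RPKM values were transformed to log2(RPKM + 0.5), and a gene was kept where 2 or more of the 12 libraries reached 1 RPKM. limma 3.58.1 (R 4.3.3) fitted 6 group means with an intensity trend (6 residual degrees of freedom, 5.08 prior), or time plus oxygen for the average effect. P-values were adjusted by Benjamini-Hochberg over the 11933 genes tested, at a threshold of 0.05. No library was left out of the reported values. The fit was tested on simulated data. Tables were made with Python 3.11.15 and figures with matplotlib 3.10.9.

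RPKM does not give counts. Where low values of a gene were whole multiples of 1 step (CA9 and CA2, within 0.1 of a read), reads were derived with the depth estimated from 707 of 939 precursors, in which 96.5 to 99.3% of values of up to 20 reads lay within 0.05 of a whole number. PCR duplicates are not excluded, so 95% intervals and the 3-read limits cover counting error only. For the other 4 genes no such step was found and no counting interval is given.

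The 6 genes and all lists were chosen with earlier results of these data known. The text names the 6 genes, up to 4 called genes of each list with the largest fold change, and the 3 genes most correlated with each tested gene, leaving out small nucleolar, spliceosomal and microRNA genes. Some genes that this rule names are not reported here. SLC16A7, CA8, CA11 and CSNK1D were named after their values were seen. Older symbols in the table (ACCN2 for ASIC1) were matched through RefSeq gene names. The alternatives tried were other pseudocounts, no filter, quantile normalization, trimmed-mean centring, no trend, fits to the compared libraries, and leaving out each library.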

Additional observations from a re-analysis of the deposited data

Results flagged for a closer look

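The 3 results that met a rule for a closer look all concern CA9, whose hypoxia effect differed between times in limma's test of the difference. The effect on the log2(RPKM + 0.5) scale was larger at 48 hr than at 6 hr by 2.63, larger at 6 days than at 48 hr by 0.92 and larger at 6 days than at 6 hr by 3.55. The difference of 0.92 depended on the processing. With a pseudocount of 0.1 it was 0.69 and was not called (limma adjusted p = 0.246). It ran from 0.69 to 1.15 with a library left out. The read-rate ratio went the other way, 257 at 48 hr and 151 at 6 days. CA9 was higher in both hypoxic libraries at each time, as for 11.1% of all genes tested. No group held the 4 libraries that a check for single outlying libraries needs.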

How the results depend on the processing

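Limits come from 2 libraries a group, RPKM without a stated read total, and 0 to 3 normoxic reads a library behind CA9. The calls of CA9 at 48 hr and 6 days and of SLC16A3 at all 3 times kept their direction and side of the threshold under every alternative and with each library left out in turn (CA9 log2 fold change 2.82 to 3.27 and 3.898 to 4.035; SLC16A3 1.26 to 1.60, 2.12 to 2.25 and 1.81 to 2.03 with a library left out). The size for CA9 depended on the pseudocount: 5.07 at 48 hr and 5.75 at 6 days with 0.1, and 2.23 and 3.12 with 1. Without 1 library, the count of all called genes ran from 181 to 836 at 6 hr and 619 to 811 at 48 hr (428 and 1448 with all), and was 278 at 6 hr when only the compared libraries were fitted. CA9 at 6 hr was 1.34 (limma adjusted p = 0.0128) with a pseudocount of 0.1. SLC16A1 turned to -0.037 at 48 hr with trimmed-mean centring, and on average over times to -0.014 with quantile normalization and -0.024 with trimmed-mean centring. Without 1 library, BSG at 6 hr ran from -0.034 to 0.40, SLC16A1 at 48 hr from -0.031 to 0.053, CA12 at 6 days from 0.37 to 0.45 (limma adjusted p 0.0383 to 0.0809) and BSG over the times from 0.15 to 0.26. Changes between times that missed the threshold also turned sign: with trimmed-mean centring CA9 (-0.077, normoxia, 48 hr against 6 hr) and BSG (-0.0096, normoxia, 6 days against 6 hr), and with quantile normalization BSG (effect 0.042 for 48 hr against 6 hr and -0.025 for 6 days against 48 hr, and 0.021 in hypoxia and 0.046 in normoxia for 6 days against 48 hr) and CA9 (-0.0013, normoxia, 6 days against 48 hr). CA2 at 6 days, which was not tested, was -0.063 with quantile normalization and 1.19 with a pseudocount of 0.1, against 0.52. Leave-out ranges that crossed 0 were -0.053 to 0.16 for the CA12 effect and -0.23 to 0.20 for the BSG effect (48 hr against 6 hr), -0.061 to 0.24 and -0.14 to 0.29 for the BSG effect at 6 days against 48 hr and 6 hr, -0.023 to 0.20 for BSG in hypoxia at 6 days against 6 hr, and in normoxia -0.028 to 0.042 (CA9) and -0.078 to 0.070 (SLC16A1) for 48 hr against 6 hr, and -0.16 to 0.071 (SLC16A3) and -0.20 to 0.23 (BSG) for 6 days against 6 hr. The cause was not tested in any of these. No paired analysis was possible because the groups share no replicate numbers: the labels number the libraries 1 to 12.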

Other observations

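C9orf25 and CNTFR, 2 of the 3 genes most like CA9 across libraries, lie on chromosome 9 as CA9 does, with 19 and 17 tested genes between them and CA9. Of the other 18 tested genes between C9orf25 and CA9, 0 rose and 0 fell in hypoxia at 6 hr. At 48 hr 3 rose and 0 fell, and at 6 days 2 rose and 8 fell, with a median log2 fold change of -0.04 at 6 days. Of all genes tested, 3.59%, 12.1% and 42.2% were called at these times, with 23.9% higher and 18.3% lower at 6 days. CNTFR, a receptor subunit for ciliary neurotrophic factor, averaged 0.141, 0.684 and 1.504 RPKM in hypoxia at 6 hr, 48 hr and 6 days, against 0.0696, 0.0541 and 0.0671 RPKM in normoxia. CNTFR passed the low-value filter only through hypoxic libraries later than 6 hr. These neighbours were looked at after their values were seen.

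SNAR-B1, the gene most like SLC16A1, averaged 432, 538 and 111 RPKM in hypoxia at 6 hr, 48 hr and 6 days, against 588, 477 and 73.8 RPKM in normoxia. KLHL21 averaged 14.6, 17.3 and 5.76 RPKM in hypoxia, against 15.2, 16.4 and 3.76 RPKM in normoxia. As with SLC16A1, the mean in hypoxia was below that in normoxia at 6 hr and above it at 48 hr and 6 days. For SLC16A1 none of these differences passed the test. Its means at 48 hr were 29.2 and 29.0 RPKM, the libraries overlapped, and the sign turned with trimmed-mean centring.

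LDHD, a D-lactate dehydrogenase, fell in hypoxia at 6 days, with 0.643 and 0.573 RPKM against 1.42 and 1.07 RPKM in normoxia (log2 fold change -0.65, limma adjusted p = 0.00595). At 48 hr it had 0.242 and 0.323 RPKM in hypoxia, against 0.0609 and 0.0834 RPKM in normoxia (0.45, adjusted p = 0.0819). It passed the low-value filter only through its normoxic libraries at 6 days.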
